A study of Mus musculus with 4 samples.

Results

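The genes described here are 10 genes of motile cilia and of the ependymal cells that carry them, Dnaic1, Foxj1, Rsph1, Ccdc153, Tekt1, Spag6, Dynlrb2, Tmem212, Dnah5 and Spef2. They were followed through brain arrays of 2 BCAS1 knockout (-/-) and 2 wild-type (+/+) male mice of the C57BL/6 strain, 8 to 9 weeks old and bred from heterozygous parents. All probe sets that the platform annotation assigns to 1 of these genes alone were taken, which gave 13 of the 45037 probe sets tested, for 10 of 18193 genes. The set was chosen by the knockout minus wild-type difference of Dnaic1 in these same arrays, and the question was whether the other genes followed it in each mouse. The differences of the 10 genes between genotypes are therefore descriptions, with no test. The labels do not say how Bcas1 was disrupted. The labels name the brain as the tissue and the cerebrum in the sample descriptions, with 1 mouse and 1 array for each sample.

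Motile cilia beat through dynein motors that slide microtubule doublets past each other. Outer and inner dynein arms supply the force, and radial spokes and a central pair of microtubules regulate it. In the brain, ependymal cells line the ventricles and carry tufts of such cilia, which move the cerebrospinal fluid. FOXJ1 and the RFX factors are transcription factors that switch on the genes of motile cilia, and RFX factors bind a promoter motif known as the X-box. Epithelial cells of the choroid plexus and of the airways and nose also carry cilia.

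RFX motifs in the promoters are shown first, because RFX factors act on genes of motile cilia. The motifs were chosen after the array values were known. Promoter windows of 300 bases, from 250 before to 50 after an annotated start, were taken from RefSeq on GRCm38.p6 and matched 8 of the 10 genes in 9 windows. Foxj1 and Rsph1 are named only. A full X-box, searched on both strands, was found in 3 of the 8 genes (37.5%), against 1.75% of all 27025 genes with a window. The whole window of Dnaic1 is printed because the array results turn on this gene, and capitals mark its X-box, which matches on the opposite strand.
Dnaic1, chr4:41569544-41569843, plus strand: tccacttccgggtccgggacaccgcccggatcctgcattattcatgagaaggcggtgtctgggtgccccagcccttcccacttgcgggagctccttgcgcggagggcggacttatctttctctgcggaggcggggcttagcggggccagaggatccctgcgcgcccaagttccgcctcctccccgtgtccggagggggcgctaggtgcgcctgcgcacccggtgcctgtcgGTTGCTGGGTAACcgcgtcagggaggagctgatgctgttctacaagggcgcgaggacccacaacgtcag
The other 2 genes with a full X-box were Dynlrb2 and Spef2, shown with their flanks for comparison with Dnaic1, with the X-box in capitals. That of Dynlrb2 matches on the strand shown and that of Spef2 on the opposite strand.
Dynlrb2, chr8:116504948-116504992, plus strand: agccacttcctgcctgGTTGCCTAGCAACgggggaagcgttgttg
Spef2, chr15:9748830-9748876, minus strand: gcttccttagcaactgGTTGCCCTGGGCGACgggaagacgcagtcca
The half-site GTTGCC, also searched on both strands, was present in 5 of the 8 genes, against 14.1% of all genes. In Dynlrb2 and Spef2 the half-site lies inside the full X-box printed above. The other 3 are shown with the half-site in capitals. Tekt1 also holds a half-site on the opposite strand, at -35 to -30 from the start, which is not printed in full.
Spag6, chr2:18698969-18699006, plus strand: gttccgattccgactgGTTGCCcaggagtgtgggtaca
Ccdc153, chr9:44240509-44240546, plus strand: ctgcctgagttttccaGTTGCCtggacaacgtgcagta
Tekt1, chr11:72361876-72361913, minus strand: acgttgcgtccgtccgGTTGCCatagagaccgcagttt

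Among 114 further motile cilia genes measured on the arrays, 99 had a window, of which 14 held the full X-box (14.1%) and 37 the half-site (37.4%). The forkhead letters TGTTTAC, searched on both strands, were in 0 of the 8 genes and in 4.05% of all genes. Of the 99 further motile cilia genes with a window, 9 held them (9.09%). The count of 0 says only that these letters are not in the windows of those 8 genes. A motif match is a description of the sequence and not evidence of binding.

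**Figure D1:**
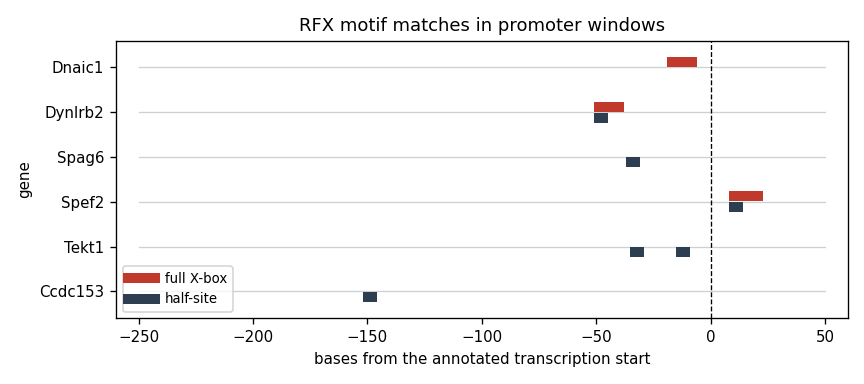
Positions of full X-box matches (red) and half-site matches (dark) in the promoter windows of the 6 genes that hold one, in bases from the annotated start (dashed line). The X-box of Dnaic1 spans -19 to -7, that of Dynlrb2 -51 to -39, and that of Spef2 lies downstream of the start at 8 to 22.

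RMA levels are on a log2 scale, so a difference of 1 is 2-fold. Knockout mouse 2 stood apart by genes of nasal tissue, and results without it are given below. The arrays had medians of 6.49 to 6.51, which the normalization between arrays in RMA brings together. Correlations between arrays across probe sets were 0.996 to 0.998. Markers of brain cells were bright, such as the neuronal gene Snap25 at 14.18 and 14.06 in the knockout mice and 14.15 and 14.17 in the wild-type mice. Bcas1 itself measured 11.05 and 10.75 in the knockout mice against 12.17 and 12.21 in the wild-type mice on its brightest probe set. That probe set differed by -1.29 (SE 0.12) with a limma adjusted p of 0.74, so it was not among those called below. The 2 dim Bcas1 probe sets were 0.77 and 0.64 higher in the knockout. Their place in the gene with respect to the disruption was not given, so they do not settle the check of the labels. Over all 45037 probe sets limma called 0 higher and 2 lower in the knockout, that is 0% and 0.00444%, with 818 (1.82%) higher and 724 (1.61%) lower at an unadjusted p under 0.05.

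Dnaic1 encodes an intermediate chain of the outer dynein arm and is now often called Dnai1. Its brighter probe set measured 6.96 and 6.97 in the knockout mice, against 6.45 and 6.20 in the wild-type mice. The second probe set measured 6.81 and 6.74 in the knockout mice, against 6.26 and 6.13 in the wild-type mice. In both probe sets the 2 knockout mice lay above the 2 wild-type mice with no overlap, and the wild-type mice were farther apart than the knockout mice. The group means of the brighter probe set were 6.97 ± 0.0071 in the knockout and 6.33 ± 0.18 in wild type (SD, n = 2 each), a difference of 0.64 (SE 0.11), or 1.56-fold. The second probe set differed by 0.58 (SE 0.083), or 1.49-fold. Both probe sets derive from the same expressed sequence tag in the annotation, so they are not independent measurements. The brighter one carries the Affymetrix suffix for sets in which some probes can also match other sequences. Probe sequences were not used here, so where the probes lie relative to the end of Dnaic1 and to the next gene was not tested, and the values hold for Dnaic1 as far as the annotation does. In a whole-tissue sample, the number of cells of a type and their RNA per cell cannot be told apart from 1 gene. The other 9 genes, described below, differed by -0.195 to 0.115 on their brightest probe sets. The part of cell number in the Dnaic1 difference was not tested.

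The other outer arm gene of the set, Dnah5, encodes a heavy chain that carries the motor itself. It measured 4.02 and 4.21 in the knockout mice, against 4.30 and 4.32 in the wild-type mice. Here both knockout mice lay below both wild-type mice, with a difference of -0.20 (SE 0.092), opposite in sign to Dnaic1. The Dnah5 probe set was dim, with a mean level under the lower quartile of all probe sets (4.89), and no detection calls accompanied the values.

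Dynlrb2 encodes a light chain of the roadblock family, which dynein complexes share. It measured 7.22 and 7.38 in the knockout mice, against 7.27 in both wild-type mice. The wild-type mice lay between the 2 knockout mice, and the difference was 0.030 (SE 0.086). Its widely expressed relative Dynlrb1 measured 11.83 and 11.90 in the knockout mice, against 11.84 and 11.95 in the wild-type mice.

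Rsph1 encodes a protein of the radial spoke head. It measured 7.17 and 7.24 in the knockout mice, against 7.18 and 7.11 in the wild-type mice, with overlapping groups. The difference was 0.060 (SE 0.076), smaller than its SE.

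Spag6 and Spef2 encode proteins of the central pair apparatus. Spag6 measured 3.88 and 4.04 in the knockout mice, against 3.93 and 3.76 in the wild-type mice. The groups overlapped at this dim level, and the difference was 0.12 (SE 0.10). The mouse has a related gene, Spag6l, which was formerly also called Spag6 and has a brighter probe set of its own. Spag6l measured 6.67 and 6.92 in the knockout mice, against 6.72 and 6.74 in the wild-type mice, so that again the wild-type mice lay between the 2 knockout mice. The brightest Spef2 probe set measured 4.80 and 4.87 in the knockout mice, against 4.85 and 5.01 in the wild-type mice. Its difference was -0.095 (SE 0.089), with overlapping groups. The 2 dimmer Spef2 probe sets differed by 0.035 (SE 0.077) and 0.030 (SE 0.079), so the 3 sets of this gene did not share a sign. All 3 lay under the lower quartile of all probe sets.

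Tekt1 encodes a tektin, a filament protein inside the doublet microtubules. It measured 5.65 and 5.96 in the knockout mice, against 5.88 and 5.70 in the wild-type mice. The knockout mice were the lowest and the highest of the 4, and the difference was 0.015 (SE 0.14). Ccdc153 encodes a coiled-coil protein used as a marker of ependymal cells in the mouse brain. It measured 6.91 and 7.17 in the knockout mice, against 7.00 and 7.02 in the wild-type mice, a difference of 0.030 (SE 0.11). Tmem212 encodes a membrane protein that marks ependymal and other multiciliated cells in mouse. It measured 7.27 and 7.57 in the knockout mice, against 7.41 and 7.44 in the wild-type mice, a difference of -0.0050 (SE 0.12). For these 3 genes both wild-type mice lay inside the interval between the 2 knockout mice.

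Foxj1, the transcription factor at the head of the programme, measured 6.23 and 6.29 in the knockout mice, against 6.30 and 6.07 in the wild-type mice. The knockout mice lay within the wild-type range, and the difference was 0.075 (SE 0.10).

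**Figure D2:**
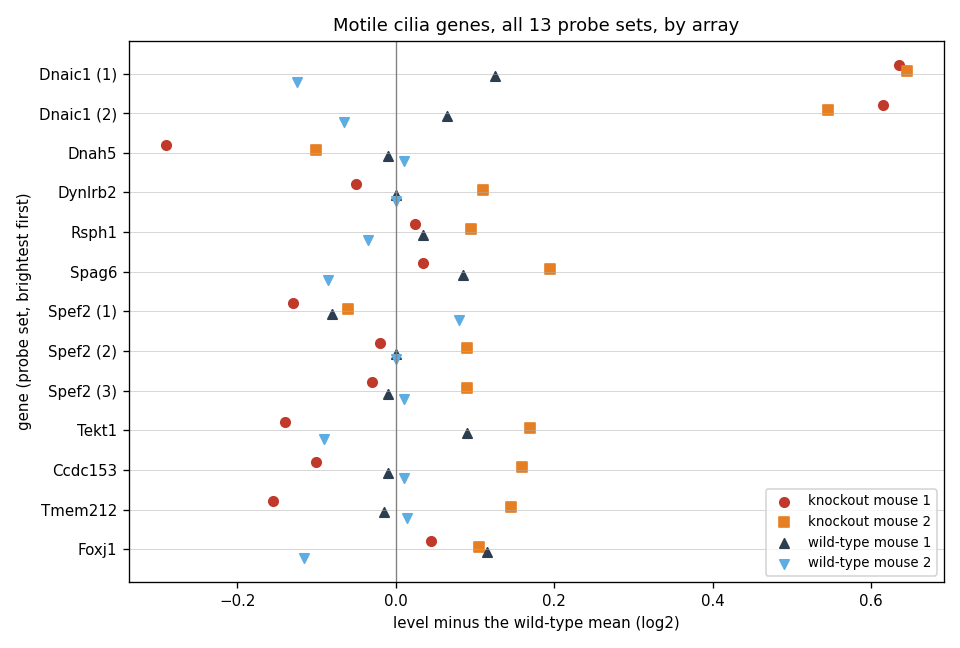
Level of each of the 13 probe sets in each mouse, as the log2 difference from the wild-type mean of that probe set, with probe sets of a gene numbered from the brightest. The Dnaic1 probe sets lie at 0.55 to 0.65 in both knockout mice, while the other probe sets lie between -0.29 and 0.20 in all mice.

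Taken by probe set, 2 of 13 had both knockout mice above both wild-type mice, and both were Dnaic1. Over all probe sets 13.9% had this order. In 1 of 13, Dnah5, both knockout mice lay below, against 13.2% of all probe sets, and the groups of the other 10 overlapped. Without knockout mouse 2, 8 of 13 lay below, against 37.1% of all probe sets, and without knockout mouse 1, 10 of 13 lay above, against 38.6%. Without Dnaic1 the 11 probe sets had differences of -0.20 to 0.12 with a median of 0.030, and 8 of 11 were positive, against 48.1% of all probe sets. By gene, the 9 genes other than Dnaic1 had a median of 0.030 as well, and 6 of the 9 were positive. The median over all genes was 0.0050, and 51.7% of genes had a positive difference. Since the 10 genes were assembled around Dnaic1 with these data known, nothing is read from these shares.

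The knockout mice differed from each other in the same direction in the 11 probe sets other than Dnaic1. In all 11 the level was higher in knockout mouse 2 than in knockout mouse 1, by 0.060 to 0.31 with a median of 0.16. Over all genes 62.7% had this order, and over all probe sets 55.9%. The Dnaic1 probe sets differed between the same mice by 0.010 and -0.070. Relative to the wild-type mean, the 9 other genes had a median of -0.10 in knockout mouse 1 and of 0.11 in knockout mouse 2. Knockout mouse 2 was the highest of the 4 mice in 6 of these 9 genes, and knockout mouse 1 was the lowest in 6 of them. Over all genes the shares were 37.7% and 34.2%. Dropping knockout mouse 2 therefore gave the 11 probe sets a median of -0.050, and dropping knockout mouse 1 gave 0.105, whereas Dnaic1 was at 0.635 without knockout mouse 2 and at 0.645 without knockout mouse 1.

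**Figure D3:**
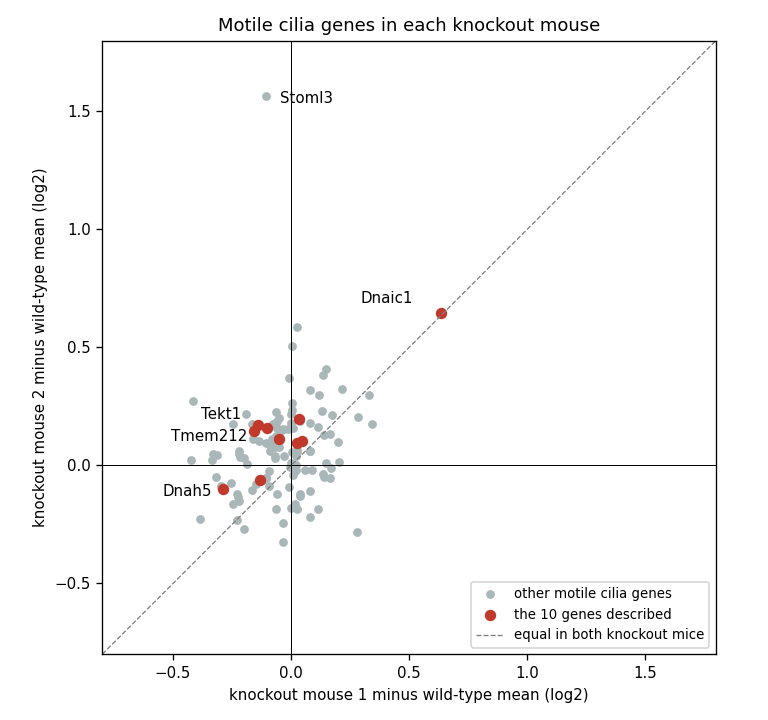
Each point is a motile cilia gene by its brightest probe set, with the log2 difference from the wild-type mean in knockout mouse 1 on the horizontal axis and in knockout mouse 2 on the vertical axis. Dnaic1 lies on the dashed line of equality at 0.64 and 0.65, and Stoml3 is displaced in knockout mouse 2 alone.

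Genes of nasal tissue, which is lined by ciliated cells, had high levels in knockout mouse 2. The 16 measured genes of a nasal mucosa list had a mean level of 5.20 and 6.65 in the knockout mice, against 5.20 and 5.29 in the wild-type mice. In 14 of the 16, knockout mouse 2 was the highest of the 4. The median knockout minus wild-type difference of the list was 0.52, with 14 positive and 2 negative. The odorant-binding protein gene Obp1a measured 3.46 and 8.92 in the knockout mice, against 3.41 and 4.15 in the wild-type mice. Bpifa1, of the airway lining, measured 3.94 and 8.33 in the knockout mice, against 3.91 and 4.32 in the wild-type mice, and Obp2a followed the same pattern. Relative to the wild-type mean, the nasal genes had a median of -0.033 in knockout mouse 1 and 1.04 in knockout mouse 2. Dnaic1 was at 0.635 and 0.645 in these mice. The part of nasal transcripts in the levels of Dnaic1 and of the other cilia genes was not tested.

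Choroid plexus epithelium carries cilia as well, and its marker list was also highest in knockout mouse 2. The 18 measured genes had a mean level of 7.61 and 7.77 in the knockout mice, against 7.58 and 7.65 in the wild-type mice, and 13 of them were highest in knockout mouse 2. Their median knockout minus wild-type difference was 0.075, with 13 positive and 4 negative, the lowest at -0.125. In 4 of 18 both knockout mice lay above both wild-type mice (22.2%), against 15.5% of all genes. Among the largest differences were those of the next 2 genes. Steap1 measured 7.05 and 7.08 in the knockout mice, against 6.81 and 6.75 in the wild-type mice, and Sostdc1, a secreted inhibitor of BMP and WNT signals, differed by 0.25 (SE 0.069). Ttr, the main secreted protein of the choroid plexus, measured 14.52 and 14.51 in the knockout mice and the same in the wild-type mice, near the top of the scale. Genes of the meninges, the membranes that cover the brain, were higher in the knockout in 12 of 12, with a median of 0.21. In 9 of 12 the groups did not overlap, against 15.5% of all genes with this order. Knockout mouse 2 was the highest of the 4 mice in 11 of the 12, against 37.7% of all genes. Relative to the wild-type mean, the 12 genes had a median of 0.1375 in knockout mouse 1 and 0.315 in knockout mouse 2. Fmod and Col1a1, of the extracellular matrix, differed by 0.41 (SE 0.097) and 0.41 (SE 0.14), and Col1a2 by 0.36 (SE 0.14). In limma 0 genes of the nasal, choroid plexus and meninges lists were called, as were 0% of all genes in the higher direction and 0.0055% in the lower. At an unadjusted p under 0.05, 0 of 16 nasal, 2 of 18 choroid plexus and 4 of 12 meninges genes were higher, against 1.68% of all genes. The part of these tissues in the Dnaic1 difference was not tested.

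Other motile cilia genes, from 9 lists of axoneme parts and of the ciliary programme, gave 114 measured genes. Their median level was 5.97, against 7.675 over all genes, and 21 of them lay under the lower quartile of all probe sets. Dnah12, Pih1d2, Iqcg and Cfap221, named below, are among these dim genes. The 93 genes over the lower quartile had a median difference of 0.015. In limma 0 of the 114 were called in either direction, over all genes 0% were higher and 0.0055% were lower, and 4 higher and 2 lower genes had an unadjusted p under 0.05, against 1.68% and 1.07% of all genes. Their median difference was 0.0050, equal to that of all genes, with 61 positive and 51 negative. In 15 of 114 both knockout mice lay above both wild-type mice (13.2%), against 15.5% of all genes, and in 14 both lay below (12.3%), against 12.8%. Only Stoml3 among the 114 reached the size of the Dnaic1 difference, with 0.73 (SE 0.55). It encodes a stomatin-like protein of sensory neurons, olfactory ones among them. It measured 6.57 and 8.24 in the knockout mice, against 6.74 and 6.61 in the wild-type mice, so that the whole difference lay in knockout mouse 2.

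Of the dynein arms, the 13 further outer arm genes had a median difference of 0.0000, with 2 above (15.4%) and 3 below (23.1%) without overlap, against 15.5% and 12.8% of all genes. The heavy chain gene Dnah17 measured 5.19 and 5.11 in the knockout mice, against 4.90 and 4.91 in the wild-type mice, a difference of 0.25 (SE 0.073). Dnah9, another heavy chain, measured 5.99 in both knockout mice, against 6.12 and 6.32 in the wild-type mice, a difference of -0.23 (SE 0.094). Armc4, needed to dock the outer arm, differed by -0.21 (SE 0.074). Their limma adjusted p was 1, as for all genes of the motile cilia lists. The 9 measured inner arm genes had a median of 0.030, with the light intermediate chain gene Dnali1 at 0.31 (SE 0.20) and the heavy chains Dnah2 and Dnah12 at 0.27 (SE 0.13) and -0.20 (SE 0.18). Dnali1 measured 5.61 and 6.17 in the knockout mice, against 5.61 and 5.56 in the wild-type mice, high in knockout mouse 2 alone. The 7 measured genes that assemble dynein arms in the cytoplasm had a median of 0.030, with Dnaaf2 at 0.13, Lrrc6 at 0.11 and Pih1d2 at -0.080.

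Radial spoke genes had a median of 0.018 over 8 measured genes, and 3 of 8 were above without overlap (37.5%), against 15.5% of all genes. Rsph4a, of the spoke head like Rsph1, measured 6.16 and 6.20 in the knockout mice, against 5.99 and 5.98 in the wild-type mice. Rsph6a and Dnajb13 differed by 0.26 (SE 0.091) and 0.18 (SE 0.085). The nexin link, which ties neighbouring doublets, had a median of -0.070 over 9 genes, with Drc1 at 0.21, Iqcg at -0.18 and Ccdc40 at -0.17. Central pair genes had a median of 0.0050 over 9. Hydin, whose loss causes hydrocephalus in mice, measured 5.66 and 5.63 in the knockout mice, against 5.33 in both wild-type mice, a difference of 0.32 (SE 0.069). Stk36 and Cfap221 were at -0.19 and -0.19. Proteins of the doublet microtubules had a median of 0.0050 over 12, with Mns1 and Tekt3 at -0.31 (SE 0.099) and -0.24 (SE 0.11) and Tekt4 at 0.26 (SE 0.18). The other tektins, Tekt2 and Tekt5, were at 0.15 and 0.015. Tekt2 measured 5.17 and 5.07 in the knockout mice, against 4.97 in both wild-type mice, so that of the 5 tektins Tekt2 lay above and Tekt3 below without overlap.

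Factors that start multicilia formation had a median of 0.020 over 13 measured genes. Rfx3, which binds the X-box, measured 9.64 and 9.71 in the knockout mice, against 9.87 and 9.85 in the wild-type mice, a difference of -0.19 (SE 0.072) without overlap. Rfx2 and Foxn4 differed by 0.080 (SE 0.10) and -0.090 (SE 0.074). The list of 34 further motile cilia genes had a median of 0.0075. Besides Stoml3, Cfap206 and Fam183b differed by 0.28 (SE 0.11) and 0.26 (SE 0.11). Tppp3, a tubulin-binding protein abundant in ependymal cells, measured 9.55 and 9.72 in the knockout mice, against 9.51 and 9.62 in the wild-type mice, with overlapping groups.

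**Figure D4:**
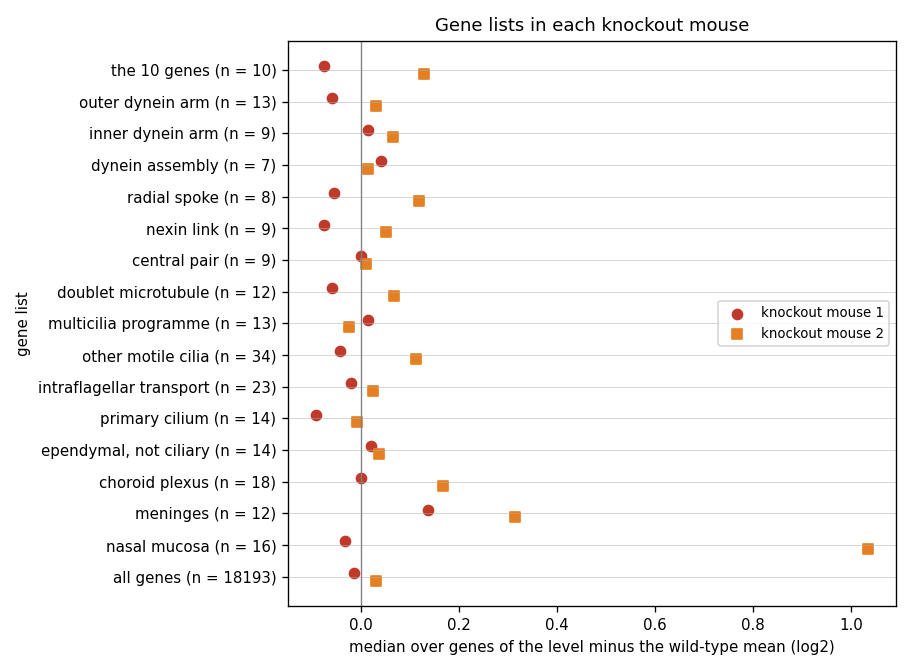
Median over the genes of each list of the log2 difference from the wild-type mean in each knockout mouse, with the number of measured genes in brackets. The 9 motile cilia lists beside the 10 genes lie between -0.075 and 0.12, and the nasal mucosa list reaches 1.04 in knockout mouse 2.

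Lists that share cells or machinery with motile cilia were set beside them. Intraflagellar transport, the traffic that builds all cilia, had a median of 0.0050 over 23 genes, with Ift22 at -0.17, Wdr35 at 0.12 and Ift80 at 0.11. Genes of the primary cilium, the single immotile cilium of neurons and other cells, had a median of -0.050 over 14, with Tmem67 at -0.29, Mchr1 at 0.15 and Sstr3 at -0.12. Ependymal genes that are not ciliary had a median of 0.040 over 14, with Sox9 at 0.18, Nnat at 0.14 and Celsr3 at -0.13. Of these 14, 5 (35.7%) were higher in knockout mouse 2 than in knockout mouse 1, against 62.7% of all genes. Among the general brain cell markers given below, 4 of 14 (28.6%) had this order. Genes of the neurogenic zone beneath the ependyma had a median of 0.0000 over 11, with Igfbpl1 at 0.16, Dlx2 at 0.085 and Top2a at 0.080. General brain cell markers had a median of 0.010 over 14, with the astrocyte gene Gfap at 0.29, the microglial gene Cx3cr1 at -0.12 and the neuronal gene Slc17a7 at -0.090. In limma 0 genes of these lists were called, and 1 gene, of the brain cell markers, was higher at an unadjusted p under 0.05. Over all genes 0% were called higher and 0.0055% lower, and 1.68% and 1.07% had an unadjusted p under 0.05 in these directions.

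Among genes above a level cut, the 5 whose profile over the 4 arrays was most like that of Dnaic1 were not cilia genes. The choice of Dnaic1 by its genotype difference fixes part of this likeness. It was measured as the root mean square difference between values centred on their own 4-array mean. The cut left 11637 genes with a mean level above the median of all probe sets, 6.49. Only 4 of the 9 other genes passed it, and the 114 further cilia genes had a median level of 5.97. Many cilia genes could therefore not enter this first ranking. Cndp2, a dipeptidase, was the closest at 0.14, followed by Rgs7, a regulator of G protein signalling, at 0.15. Igf2, a growth factor of the meninges and choroid plexus, and Bex4 were both at 0.16, and the amino acid carrier Slc7a3 was at 0.17. Cndp2 measured 9.81 and 9.79 in the knockout mice, against 9.53 and 9.35 in the wild-type mice. Ranked among all 18192 other genes, the closest of the 9 genes was Spag6 at rank 1225, then Foxj1 at 1913 and Rsph1 at 3022. Tmem212 was at rank 11862, Spef2 at 16274 and Dnah5 at 17546. Of the 114 further cilia genes Hydin came closest, at rank 71, and Dnah2 was next, at 84.

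The genes that flank Dnaic1 on chromosome 4 did not share its difference. Fam219a, a gene on the opposite strand, has a promoter window that overlaps that of Dnaic1 by 245 bases. Its brighter probe set measured 9.93 and 10.07 in the knockout mice, against 10.08 and 10.03 in the wild-type mice, a difference of -0.055 (SE 0.084), and its other probe set differed by -0.12 (SE 0.094). Enho, the next protein-coding gene after Dnaic1 in the gene table, encodes the peptide adropin. Its brightest probe set measured 10 and 9.89 in the knockout mice, against 9.98 and 10 in the wild-type mice. Over its 4 probe sets the differences were -0.050 to 0.13, with a limma adjusted p of 1 throughout.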

How the data were processed

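Brain RNA of 2 Bcas1 knockout and 2 wild-type mice was measured on 1-colour Affymetrix arrays, 1 array per mouse. Each array has 1 deposited log2 level for every probe set, rounded to 2 decimals. Per the submitters' processing notes, the authors used RMA. RMA corrects background, normalizes between arrays and summarises the probes of a set. Software and settings of RMA were not given in the sources used here.

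Of 45101 probe sets, 64 controls were left out. The platform annotation named 1 gene for 34945 of the other 45037, several for 932 and none for 9160. Entrez numbers linked 34754 of these symbols to RefSeq genes of GRCm38.p6, and 0 symbols changed. Counts of genes use the brightest probe set of each of 18193 genes, while all 13 probe sets of the 10 genes were kept.

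Knockout minus wild-type differences and their SEs came from limma 3.58.1 in R 4.3.3 (lmFit and eBayes, two-sided, Benjamini-Hochberg adjustment over all 45037 probe sets, threshold 0.05). The fit had 2 residual and 2.74 prior degrees of freedom. The procedure was tested on simulated data. An exact permutation test of 2 against 2 mice cannot give a two-sided p below 0.333. The number of arrays limits the precision, and no depth applies.

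The 10 genes and the gene lists were chosen with earlier results of these data known, so the differences of the 10 genes are given without a test. Named genes are the 10, up to 3 per list with the largest differences, the 5 most like Dnaic1, and Bcas1. Spag6l, Tekt2, Tekt5, Enho, Fam219a, Dynlrb1, Snap25, Ttr, Tppp3, Cnga2 and Omp were added after their values were seen, as were the promoter motifs. Alternatives covered centring, quantile normalization applied again, removal of dim probe sets, a variance trend, a replicate block, gene means and leaving out each array. Each list's result is in the text.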

Additional observations from a re-analysis of the deposited data

How the results depend on the processing

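The number of mice, 2 per group, limits every value. The numbering of the mice is shared between the genotypes, and the deviations of same-numbered mice correlated at 0.24 over probe sets, but with only 2 pairs the numbers were not taken as a pairing. Over all probe sets 2 were called in the main test, 10 with an intensity trend and robust variance, 0 with the replicate block and 0 when any 1 array was left out, where the lone mouse of a group is assumed to vary like the others. The count of the 13 probe sets with both knockout mice above both wild-type mice was 2. It was 3 with median-centred arrays and 4 with repeated quantile normalization, where 15.8% and 15.3% of all probe sets had this order. It was 2 to 10 when an array was left out, with 10 without the first knockout mouse and 5 without the first wild-type mouse, where 38.6% and 25.8% of all probe sets had it. It was 2 without the second knockout mouse and 2 without the second wild-type mouse, where 29.4% and 29.2% had it. The count with both knockout mice below was 1, and 1 to 8 when an array was left out. It was 8 without the second knockout mouse, where 37.1% of all probe sets had this order, and 1 without the first, where 31.2% had it. Without the first or the second wild-type mouse it was 2, where 27.2% and 28.1% had it. With repeated quantile normalization it was also 2, where 13.3% had it. Leaving out 1 array moved the median difference of the 13 probe sets between -0.030 and 0.11, and that of the 11 without Dnaic1 between -0.050 and 0.105. Both were negative without the second knockout mouse. The median of the 114 further cilia genes ran from -0.023 to 0.050, and the Dnaic1 difference from 0.515 to 0.765, over all 10 alternatives. The cause of these shifts was not tested, except that a smaller group overlaps less by construction. With dim probe sets left out, 8 of the 13 probe sets remained.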

Other observations

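Stoml3 has 2 probe sets, and the dimmer one measured 4.82 and 6.43 in the knockout mice, against 5.10 and 4.91 in the wild-type mice. Cnga2, a channel subunit of olfactory sensory cilia, measured 5.27 and 6.00 in the knockout mice, against 5.15 and 5.27 in the wild-type mice. Omp, the marker of mature olfactory neurons, measured 6.17 and 6.56 in the knockout mice, against 6.42 and 6.41 in the wild-type mice. Knockout mouse 2 was the highest of the 4 in each of these, while for Omp knockout mouse 1 lay farther from the wild-type mice. Cnga2 and Omp are also among the measured genes of the nasal mucosa list, so their values are already counted there. The values given here were looked up after the Stoml3 values were seen.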
